A study of Mus musculus with 6 samples.

Results

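Fibronectin, the tenascins, periostin and 5 further secreted glycoproteins of the matrix were followed in RNA from mouse ventral dermis in which part of the fibroblasts carried activated beta-catenin. The genes were taken by symbol from the deposited table: Fn1, Postn, Tnc, Tnxb, Tnn, Sparc, Sparcl1, Spp1, Vtn and Tgfbi, 10 of 23412 genes. All 10 were found, 9 averaged 1 FPKM or more across all libraries and entered the test, and Tnn was under that limit. FPKM divides the fragments of a gene by its length and by the depth of the library, so levels can be compared between genes.

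The mutants were 3 mice of genotype HoxB6CreERT/+; R26-YFP/+; CatnbΔex3/+. The controls were 3 littermates of genotype HoxB6CreERT/+; R26-YFP/+. The CatnbΔex3 allele loses exon 3 of Ctnnb1 on Cre activity, which removes the sites that mark beta-catenin for degradation. The Cre is tamoxifen-inducible and driven from Hoxb6, and R26-YFP is a yellow fluorescent reporter of Cre activity, so both groups carried Cre and reporter. All mice, on a mixed CD1 and C57BL/6 background, received tamoxifen through the mother on embryonic day 16.5 and were taken at 3 weeks of age. Epidermis was removed after trypsin, and the whole remaining dermis was used, so the libraries hold RNA of recombined and unrecombined fibroblasts and of other cells. What share of fibroblasts had recombined is not given in the sources used here.

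Fibronectin is assembled by cells into fibrils through integrins, and collagen and other matrix proteins are laid down on it. Periostin, the tenascins, SPARC, SPARC-like 1, osteopontin and the TGF-beta-induced protein are grouped as matricellular proteins, which adjust adhesion, growth factor activity and collagen assembly more than they bear load. In skin, many of them are made at high levels in development and wound repair, and several are known from fibrotic tissue. Tenascin X is an exception, as a standing component of mature dermis.

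Reads assigned to genes numbered 11839144 to 13478910 in mutant libraries and 7799565 to 9675359 in control libraries. Controls 1 and 2 expressed Xist (55.5 and 66.2 FPKM) and next to nothing of 4 Y-linked genes, whereas Y-linked expression was present in the other 4 libraries, so library sex and group were not balanced. Mutant 2 held both, with Xist at 6.47 FPKM beside 47.6 FPKM summed over the Y-linked genes, where mutants 1 and 3 and control 3 had Xist at 0.0827 to 0.184 FPKM. Values within the Y-expressing libraries are therefore given with and without mutant 2. On the first principal component, with 51% of the variance, mutant 1 stood at -33.9 and control 2 at 34.9, and the other libraries lay between -8.45 and 4.74. The fibroblast list had 8 of 8 genes above 0, and its summed level was 343 to 577 FPKM in mutants and 149 to 252 FPKM in controls. The macrophage list, which holds some genes shared with other leukocytes, likewise had 11 of 11 tested genes above 0. Its sums were 228 to 405 FPKM in mutants and 88.7 to 149 FPKM in controls. The adipocyte list had 7 of 8 genes above 0, with sums of 404 to 628 FPKM in mutants and 349 to 395 FPKM in controls. Median log2 differences were 0.81 for fibroblast, 1.05 for macrophage and 0.85 for adipocyte genes. Of all tested genes, 71.3% were above 0. In bulk tissue, more cells of a type and more RNA per cell cannot be told apart, and the part of these lists in the differences below was not tested.

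No member passed the test over all genes (limma on log2(FPKM + 1), Benjamini-Hochberg adjustment over 12560 genes). Of all tested genes 0.143% were called higher and 0% lower. Of the 9 tested members, 7 had a positive difference, where 71.3% of all tested genes did, and the median was 0.51 on the log2 scale against 0.09 for all tested genes. At an unadjusted p under 0.05, 4 of 9 members were higher (Tgfbi, Tnxb, Fn1 and Sparc), where 10.5% of all genes were, and 0 of 9 were lower, where 0.748% of all genes were. In 3 of 9, Tgfbi, Tnxb and Sparc, every mutant lay above every control, as in 13% of all tested genes. The members thus differed widely among themselves, from a mean that was 2.22 times the control mean for Tgfbi to 0.511 times for Spp1.

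**Figure D1:**
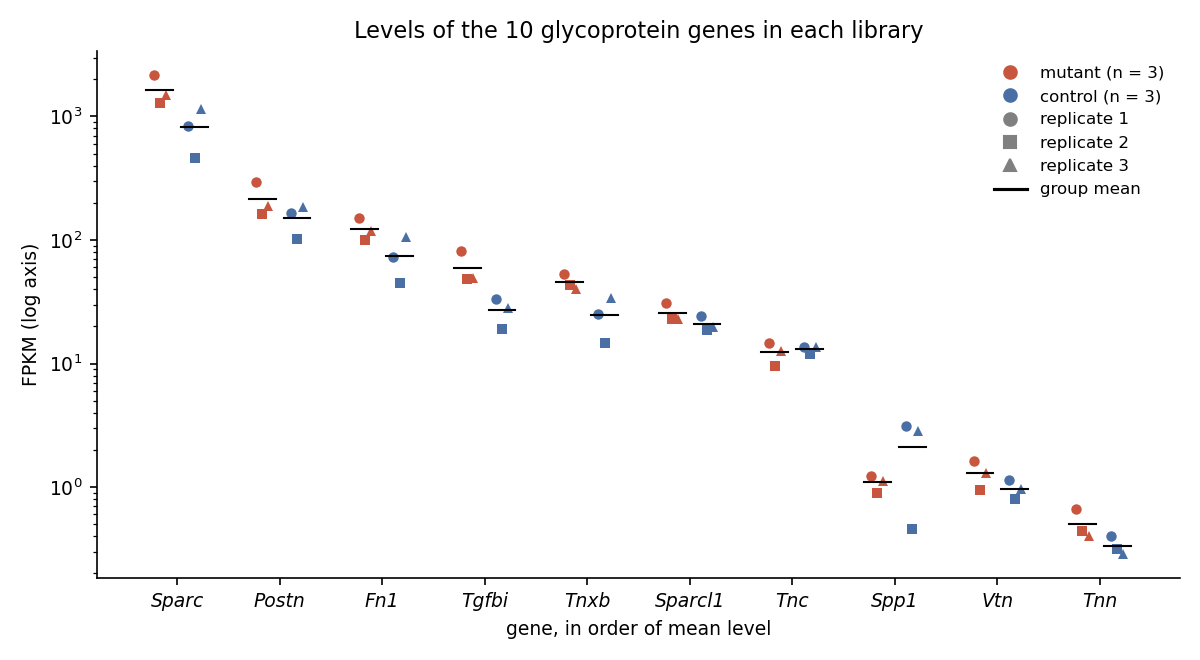
FPKM (log axis) of the 10 genes in each library, ordered by mean level, with mutants to the left of controls and a bar for each group mean (n = 3 each). In Sparc, Tgfbi and Tnxb the mutant points lie above all control points, in Tnc the groups overlap as deposited, and in Spp1 control 2 lies far below controls 1 and 3.

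Levels spanned more than 3 orders of magnitude. Sparc was rank 12 of all 23412 genes by mean FPKM, with 1648 ± 468 FPKM in mutants and 820 ± 348 FPKM in controls (mean ± SD, n = 3 each, as below). It was followed by Postn at rank 118, Fn1 at 238, Tgfbi at 681, Tnxb at 903, Sparcl1 at 1509 and Tnc at 3244. Spp1, Vtn and Tnn were near or under 1 FPKM. The ranges of Tgfbi and Tnxb overlapped in both groups, as did those of Spp1 and Vtn, so these neighbours were not separated in level. Postn and Fn1 overlapped in controls (101 to 185 and 45.2 to 105 FPKM) and not in mutants (163 to 297 and 100.3 to 149.8 FPKM). Together the 10 genes took 0.906% to 1.19% of gene reads in mutants and 0.429% to 0.79% in controls. Sparc alone made up 58.9% to 61.2% of the members' reads in mutants and 50.2% to 56.3% in controls.

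Fn1 (chromosome 1, 71585520 to 71653200, minus strand, GRCm38) encodes fibronectin. It stood at 149.8, 100.3 and 118 FPKM in mutants 1 to 3, and at 72.7, 45.2 and 105 FPKM in controls 1 to 3. All 3 mutants were above controls 1 and 2, but control 3 was above mutant 2 in the deposited FPKM. Those FPKM summed to 235396 in control 3 and 203446 in mutant 2, so that order depends on the scaling. The log2 difference was 0.78 (SE 0.31, 95% interval 0.09 to 1.47, adjusted p = 0.367 by limma). Between 6041 and 24697 reads lay behind each value, so counting error is small beside the spread between mice. Among libraries that express Y-linked genes, the mutants against control 3 alone, the difference was 0.21, and 0.34 without mutant 2. The value covers the whole gene and does not resolve the spliced forms of fibronectin.

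Receptors for fibronectin and the other members came next. Of 14 tested genes for integrin chains and other receptors, 13 were above 0 (71.3% of all tested genes were) with a median log2 difference of 0.30, and 0 were called in either direction. In 6 of the 14, all mutants were above all controls, as in 13% of all tested genes. The smallest p-values belonged to Itga4, an integrin chain of leukocytes that binds an alternatively spliced part of fibronectin, to Plaur, the urokinase receptor, and to Itga9, whose integrin binds tenascin C and osteopontin. Itga4 stood at 1.47 ± 0.135 FPKM in mutants and 0.815 ± 0.0978 FPKM in controls (adjusted p = 0.185 by limma), Plaur at 1.64 ± 0.254 FPKM in mutants and 0.862 ± 0.31 FPKM in controls (adjusted p = 0.227) and Itga9 at 3.72 ± 0.313 FPKM in mutants and 2.72 ± 0.172 FPKM in controls (adjusted p = 0.283). Cd44, a receptor for hyaluronan and osteopontin that was picked after its values were seen, was the sole tested receptor below 0, at 31.7 ± 1.4 FPKM in mutants and 35.4 ± 3.3 FPKM in controls.

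Postn and Tgfbi encode the 2 members built from fasciclin domains. Tgfbi (chromosome 13, 56609523 to 56639562, plus strand), named for its induction by TGF-beta and a binder of collagen and integrins, had the largest difference of the 10. It stood at 81.8, 48.2 and 49.4 FPKM in mutants 1 to 3 and at 33.2, 19.1 and 28.4 FPKM in controls 1 to 3. Every mutant was above every control, and the lowest mutant was 1.45 times the highest control. The log2 difference was 1.12 (SE 0.26, 95% interval 0.53 to 1.71, adjusted p = 0.131 by limma), on 2756 to 4287 reads in mutants and 810 to 1512 in controls. Within the libraries that express Y-linked genes it was 1.0 (1.13 without mutant 2), and without control 2 and mutant 1 together it was 0.65.

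Postn (chromosome 3, 54361109 to 54391037, plus strand) encodes periostin, which helps collagen cross-linking and carries tenascin C to fibronectin fibrils. It stood at 297, 163 and 187 FPKM in mutants 1 to 3 and at 165, 101 and 185 FPKM in controls 1 to 3. Mutant 1 was high and control 2 low, while mutants 2 and 3 lay close to controls 1 and 3. The log2 difference was 0.51 (SE 0.32, 95% interval -0.20 to 1.23, adjusted p = 0.631 by limma). Without control 2 and mutant 1 together it was -0.0029, and within the libraries that express Y-linked genes 0.17 (0.35 without mutant 2).

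The balance of the 2 fasciclin genes was therefore compared within each library, where an offset shared by all genes drops out. The log2 ratio of Postn to Tgfbi was 1.85, 1.73 and 1.90 in mutants 1 to 3 and 2.28, 2.34 and 2.66 in controls 1 to 3. All mutants lay below all controls, by 0.60 on average (exact two-sided permutation p = 0.1, the smallest possible with 3 against 3; 0.133 after adjustment over 4 such ratios). The difference was between -0.68 and -0.48 with any single library left out. Control 3, the sole control with Y-linked expression, lay furthest from the mutants.

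**Figure D2:**
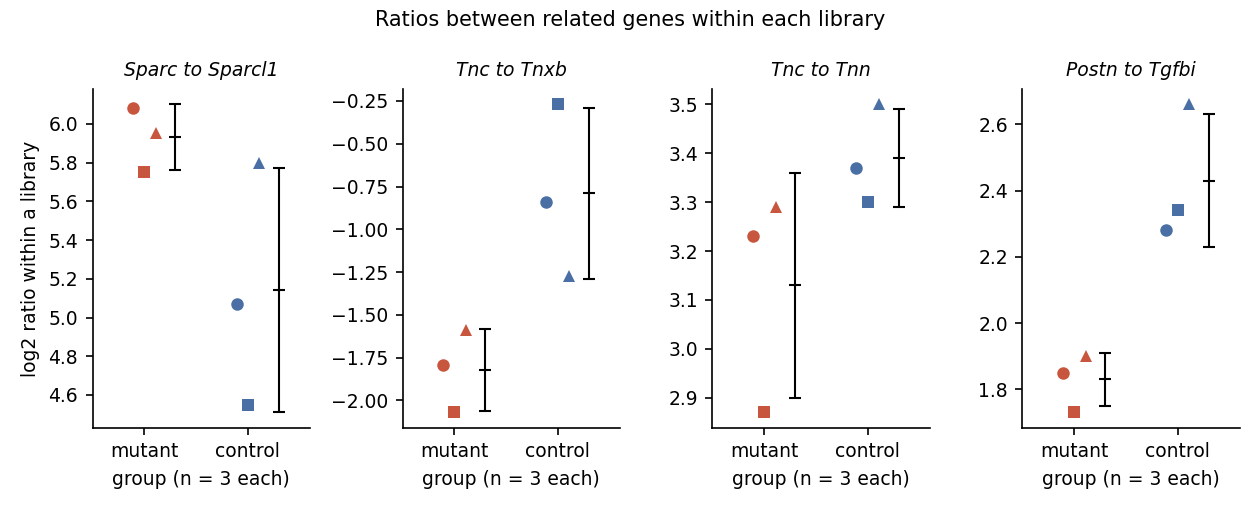
Log2 ratio, from log2(FPKM + 1), of 4 pairs of related genes within each library, with mutants left of controls and bars for mean ± SD (n = 3 each); the vertical axes differ and do not start at 0. Groups are separate for Tnc to Tnxb, Tnc to Tnn and Postn to Tgfbi, and overlap for Sparc to Sparcl1.

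The 3 tenascin genes gave unlike values. Tnxb (chromosome 17, 34670535 to 34719815, plus strand), whose product binds collagen fibrils and whose loss in humans causes a form of Ehlers-Danlos syndrome, stood at 52.9, 43.1 and 40.4 FPKM in mutants 1 to 3. Controls 1 to 3 had 25.1, 14.6 and 34.2 FPKM, so every mutant was above every control. On the log2 scale the difference was 0.93 (SE 0.27, 95% interval 0.31 to 1.54, adjusted p = 0.219 by limma), on 2221 to 9912 reads. Without control 3, the highest control, it was 1.19 with adjusted p = 0.0479 by limma, the single member call in any setting tried. That setting called 202 of 12580 genes, against 18 of 12560 as reported. It left no control with Y-linked expression, so library sex and group could not be told apart there. Within the libraries that express Y-linked genes, where control 3 is the sole control, the Tnxb difference was 0.39 (0.42 without mutant 2).

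Tnc (chromosome 4, 63959785 to 64047015, minus strand) encodes tenascin C, which is scarce in resting dermis and induced in wounds and around hair follicles. It stood at 14.6, 9.54 and 12.7 FPKM in mutants 1 to 3 and at 13.6, 12 and 13.6 FPKM in controls 1 to 3. The groups overlapped in these deposited values. The log2 difference of Tnc was -0.10 (SE 0.17, 95% interval -0.47 to 0.28, adjusted p = 0.906 by limma). That interval leaves out the size of the Tnxb difference. The Tnc difference was -0.23 to -0.20 under the 3 other scalings (adjusted p = 0.255 to 0.278 by limma) and 0.06 without mutant 2. The deposited FPKM sums differ between libraries, so the overlap of the groups depends on the scaling.

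Tnn (chromosome 1, 160085029 to 160153580, minus strand), the gene of tenascin N, also called tenascin W, was low. It stood at 0.669, 0.444 and 0.405 FPKM in mutants 1 to 3 and 0.404, 0.315 and 0.288 FPKM in controls 1 to 3. The mutants lay above the controls, but the closest pair, mutant 3 and control 1, rested on 50 and 40 reads from libraries of unequal depth and was nearly equal in FPKM. As a gene under the FPKM limit it had no test. Tnr, the tenascin of the nervous system, was at 0.0279 FPKM on average in mutants and 0.0575 FPKM in controls.

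The log2 ratio of Tnc to Tnxb was -1.79, -2.07 and -1.59 in mutants 1 to 3 and -0.84, -0.27 and -1.27 in controls 1 to 3. The groups were separate, with a difference of -1.02 (exact two-sided permutation p = 0.1, the smallest possible; adjusted 0.133). The mutant mean was -1.82, and control 3, the sole control with Y-linked expression, lay closest to it at -1.27. Controls 1 and 2, which expressed Xist, lay further off. The ratio of Tnc to Tnn was also lower in all mutants, at 3.23, 2.87 and 3.29 against 3.37, 3.30 and 3.50 in controls, a difference of -0.27 (exact two-sided permutation p = 0.1; adjusted 0.133). Its size depends on the pseudocount, since Tnn is low, and was -0.56 with a pseudocount of 0.1. Without mutant 2 it was -0.13 (exact p = 0.2), and mutant 3, at 3.29, and control 2, at 3.30, were nearly equal. For this ratio control 3 was the control furthest from the mutants, at 3.50.

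Sequence upstream of the annotated starts is shown for Tnxb and Tnc, whose ratio separated the groups, and for periostin, as RefSeq gives it for GRCm38.p6. Tnc and Postn have 2 RefSeq windows each, and the one with its start nearest to the GENCODE gene start is printed. Each run is 250 bases on the gene's strand and ends at the base before the start. Capitals mark matches on either strand to a TCF/LEF core (CTTTGAT), an AP-1 site (TGANTCA), a SMAD element (CAGACA) or a TATA box (TATAAA).
Tnxb, chr17:34670285-34670534, plus strand: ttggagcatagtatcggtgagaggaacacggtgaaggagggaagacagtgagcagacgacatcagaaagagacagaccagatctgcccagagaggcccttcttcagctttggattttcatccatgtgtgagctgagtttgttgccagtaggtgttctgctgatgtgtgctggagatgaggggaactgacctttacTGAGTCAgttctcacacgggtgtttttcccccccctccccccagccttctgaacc
Tnc, chr4:64047016-64047265, minus strand: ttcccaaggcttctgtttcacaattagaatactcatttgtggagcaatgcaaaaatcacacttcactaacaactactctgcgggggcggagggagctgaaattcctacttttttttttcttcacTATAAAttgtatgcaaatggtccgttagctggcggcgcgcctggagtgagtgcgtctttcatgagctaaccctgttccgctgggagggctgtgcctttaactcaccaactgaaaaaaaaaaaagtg
Postn, chr3:54360857-54361106, plus strand: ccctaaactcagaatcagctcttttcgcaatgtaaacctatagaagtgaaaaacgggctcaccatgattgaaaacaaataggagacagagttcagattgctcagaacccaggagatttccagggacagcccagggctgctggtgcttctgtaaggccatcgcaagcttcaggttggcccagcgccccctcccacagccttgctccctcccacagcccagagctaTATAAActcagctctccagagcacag
The Tnxb window holds an AP-1 match near its end and no TATA match, and the printed Tnc and Postn windows hold a TATA match each. Of the windows not printed, that of Tnc overlaps the printed one and holds the same TATA match and a SMAD element. That of Postn holds none of the 4 motifs. RefSeq windows were matched for 8 members (Postn, Sparc, Spp1, Tgfbi, Tnc, Tnn, Tnxb and Vtn), 11 windows in all, of which some overlap. A TCF/LEF core was in 0 of the 11, where 3.21% of 32851 windows of this length hold it. AP-1 was in 1 (6.75% of all windows), the SMAD element in 4 (17.1%) and the TATA box in 5 (12.4%). The TATA match of Tnc counts in both of its windows. The Sparc window, which holds a SMAD element, has its start 3103 bases inside the GENCODE gene and overlaps 3 annotated exons. These are letter matches in short windows and say nothing of binding.

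Sparc and Sparcl1 encode related collagen-binding proteins. Sparc (chromosome 11, 55394500 to 55423183, minus strand), whose product, also called osteonectin, assists collagen processing and assembly in dermis, stood at 2177, 1288 and 1480.4 FPKM in mutants 1 to 3. Controls 1 to 3 had 843, 461 and 1156 FPKM, so every mutant was above every control, with control 3 nearest. Its log2 difference was 1.07 (SE 0.44, 95% interval 0.08 to 2.06, adjusted p = 0.398 by limma), on 16803 to 97927 reads. Within the libraries that express Y-linked genes it was 0.47 (0.63 without mutant 2), and without control 2 and mutant 1 together 0.48.

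Sparcl1 (chromosome 5, 104079111 to 104113733, minus strand), also called hevin, is known from vessels and from collagen fibril assembly. It stood at 31.1, 23.0 and 23.0 FPKM in mutants 1 to 3 and 24.1, 18.7 and 19.8 FPKM in controls 1 to 3. Control 1 was above mutants 2 and 3. Its log2 difference was 0.28 (SE 0.18, 95% interval -0.11 to 0.68, adjusted p = 0.629 by limma), and 0.15 to 0.17 under the 3 other scalings. The endothelial list had 8 of 8 tested genes above 0 with a median of 0.22, and summed to 49.1 to 59.6 FPKM in mutants and 36.7 to 46.3 FPKM in controls.

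The log2 ratio of Sparc to Sparcl1 was 6.08, 5.75 and 5.95 in mutants and 5.07, 4.55 and 5.80 in controls. Control 3, the sole control with Y-linked expression, lay among the mutants, and controls 1 and 2, which expressed Xist, lay below them. The difference between the groups was 0.78 (exact two-sided permutation p = 0.2, adjusted 0.2), and 0.49 without control 2. The mutant mean was 5.93, against 5.80 in control 3. Of 6 SPARC and follistatin-like relatives, 3 were tested and none was called, with a median log2 difference of 0.67 and all mutants above all controls in each of the 3 (13% of all tested genes). Spock2, a proteoglycan, stood at 3.24 ± 0.824 FPKM in mutants and 1.65 ± 0.346 FPKM in controls (adjusted p = 0.166 by limma). Fstl1, a secreted glycoprotein of mesenchyme, stood at 179 ± 54 FPKM in mutants and 98.5 ± 28.2 FPKM in controls (adjusted p = 0.292), and Smoc2, a calcium-binding matrix protein, at 22.1 ± 4.86 FPKM in mutants and 15.1 ± 2.65 FPKM in controls (adjusted p = 0.339).

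**Figure D3:**
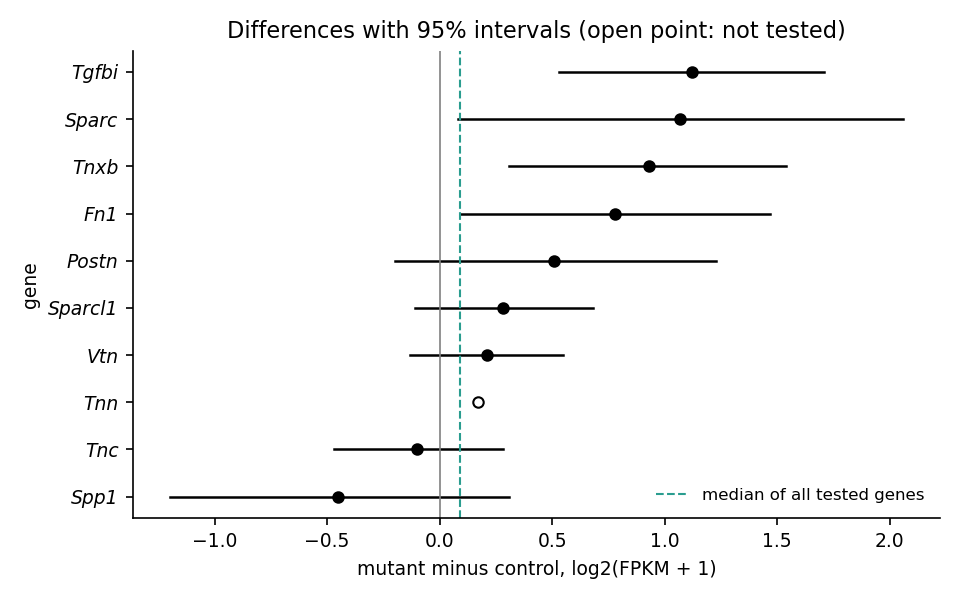
Mutant minus control difference of each gene on the log2(FPKM + 1) scale with its 95% interval from limma (3 libraries a group); Tnn, open, was not tested. The intervals of Tgfbi, Tnxb, Fn1 and Sparc lie above 0, and none of the 9 tested genes passed after adjustment over all genes.

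Spp1 and Vtn encode adhesive glycoproteins that bind integrins of the alpha v type. Spp1 (chromosome 5, 104435118 to 104441050, plus strand), the gene of osteopontin, which is made by bone cells, activated macrophages and some epithelia, had the most negative difference of the members. It stood at 1.23, 0.904 and 1.13 FPKM in mutants 1 to 3 and at 3.12, 0.456 and 2.82 FPKM in controls 1 to 3. All mutants were under controls 1 and 3 and above control 2, and the values rest on 16 to 20 reads in mutants and 6 to 44 in controls. The log2 difference was -0.45 (SE 0.34, 95% interval -1.20 to 0.31, adjusted p = 0.725 by limma). Single controls decided its size: it was -0.18 without control 1 (adjusted p = 0.892), -0.93 without control 2 (adjusted p = 0.0676) and -0.23 without control 3 (adjusted p = 0.904).

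Of the 11 tested genes of the macrophage list given above, 2, Fcer1g and Ptprc, were called higher (0.143% of all tested genes were). Those 2 are not particular to macrophages. Emr1 (adjusted p = 0.11 by limma), Mrc1 (0.122), Csf1r (0.266) and Cd68 (0.403) were above 0 and did not pass. The difference of Spp1 was below 0 and did not pass either. The difference between Spp1 and the genes of that list was not tested. The other phosphoproteins of bone and tooth, Ibsp, Dmp1, Mepe and Dspp, were under the FPKM limit, and Mepe was listed at 0 in every library. Ibsp, bone sialoprotein, was at 0.0822 ± 0.0363 FPKM in mutants and 0.184 ± 0.0487 FPKM in controls.

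Vtn (chromosome 11, 78499091 to 78502324, plus strand) encodes vitronectin, a plasma protein made mainly in liver and also by pericytes. It stood at 1.64, 0.94 and 1.29 FPKM in mutants 1 to 3 and 1.14, 0.795 and 0.959 FPKM in controls 1 to 3, on 22 to 56 reads, with overlap of the groups. On the log2 scale the difference was 0.21 (SE 0.15, 95% interval -0.13 to 0.55, adjusted p = 0.697 by limma). The liver genes Alb, Apoa1, Ttr and Serpina1a together came to 0.226 to 0.367 FPKM in mutants and 0.283 to 0.414 FPKM in controls. Pericyte and smooth muscle markers had 7 of 8 above 0 with a median of 0.30 and groups that overlapped in all 8.

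Collagens, fibulins and other genes that bind or process the members were counted in the same way. Of 19 tested matrix partners, 16 were above 0 (71.3% of all tested genes were) with a median log2 difference of 0.91, and 0 were called. In 11 every mutant was above every control (13% of all tested genes). Fbln1, a fibulin that binds fibronectin, stood at 13.7 ± 2.2 FPKM in mutants and 7.44 ± 1.41 FPKM in controls (adjusted p = 0.102 by limma). Fbln2 stood at 27.8 ± 6.53 FPKM in mutants and 14.8 ± 3.82 FPKM in controls (adjusted p = 0.17) and the fibrillin gene Fbn1 at 96.8 ± 21.4 FPKM in mutants and 47.6 ± 16.8 FPKM in controls (adjusted p = 0.185). Thbs1 and Ctgf, both known to be induced by TGF-beta, were below 0, with log2 differences of -0.06 and -0.17, and were singled out after their values were seen.

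Of 14 genes of the TGF-beta signal, 10 were above 0 (71.3% of all tested genes were) with a median of 0.23 and none was called. In 6 of the 14 every mutant was above every control (13% of all tested genes). The receptor gene Tgfbr2 stood at 29.3 ± 5.3 FPKM in mutants and 17.2 ± 3.42 FPKM in controls (adjusted p = 0.175 by limma), the co-receptor gene Tgfbr3 at 22.2 ± 3.8 FPKM in mutants and 14 ± 2.52 FPKM in controls (adjusted p = 0.2) and the ligand gene Tgfb2 at 4.37 ± 0.743 FPKM in mutants and 2.57 ± 0.879 FPKM in controls (adjusted p = 0.227). Of 10 tested feedback genes of the canonical Wnt signal, 5 were above 0 and 5 below, with a median of 0.04 and none called. In 3 of the 10 every mutant was above every control (13% of all tested genes), and in 1 every mutant was below (2.65%). Sp5 and Dkk1 of this list were under the FPKM limit and had no test. Sp5 stood at 0.455 ± 0.145 FPKM in mutants and 0.0474 ± 0.058 FPKM in controls, every mutant above every control. Dkk1 stood at 0.135 ± 0.102 FPKM in mutants and 0.0451 ± 0.0406 FPKM in controls, with overlap. Wif1, a secreted Wnt inhibitor, stood at 24.8 ± 2.74 FPKM in mutants and 16.7 ± 4.2 FPKM in controls (adjusted p = 0.283 by limma). Axin2, a feedback inhibitor, stood at 8.93 ± 0.201 FPKM in mutants and 7.24 ± 0.812 FPKM in controls (adjusted p = 0.461), and the transcription factor gene Lef1 at 14.1 ± 1.73 FPKM in mutants and 17.5 ± 0.537 FPKM in controls (adjusted p = 0.464).

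The spread among libraries followed a shared order. Mutant 1 was the highest of the 6 libraries in 9 of the 10 members, where it was so in 64.1% of all tested genes, and control 2 was the lowest in 8 of 10, where it was so in 47.1% of all tested genes. The deposited FPKM also had their highest sum in mutant 1, at 281766, and their lowest in control 2, at 192880. The part of these unequal sums in the order was not tested. Against the control mean, the median over the tested members was 1.02, 0.16 and 0.36 in mutants 1 to 3 and 0.14, -0.52 and 0.35 in controls 1 to 3, so control 3 stood level with mutant 3 and above mutant 2. The same median over all tested genes was 0.25, -0.06 and 0.10 in the mutants and 0.07, -0.11 and 0.04 in the controls. The median of the members was 0.21 when library sex was a covariate (0.35 without mutant 2), and without control 2 and mutant 1 together it was 0.07. Library sex and the group cannot be told apart beyond that comparison with control 3.

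**Figure D4:**
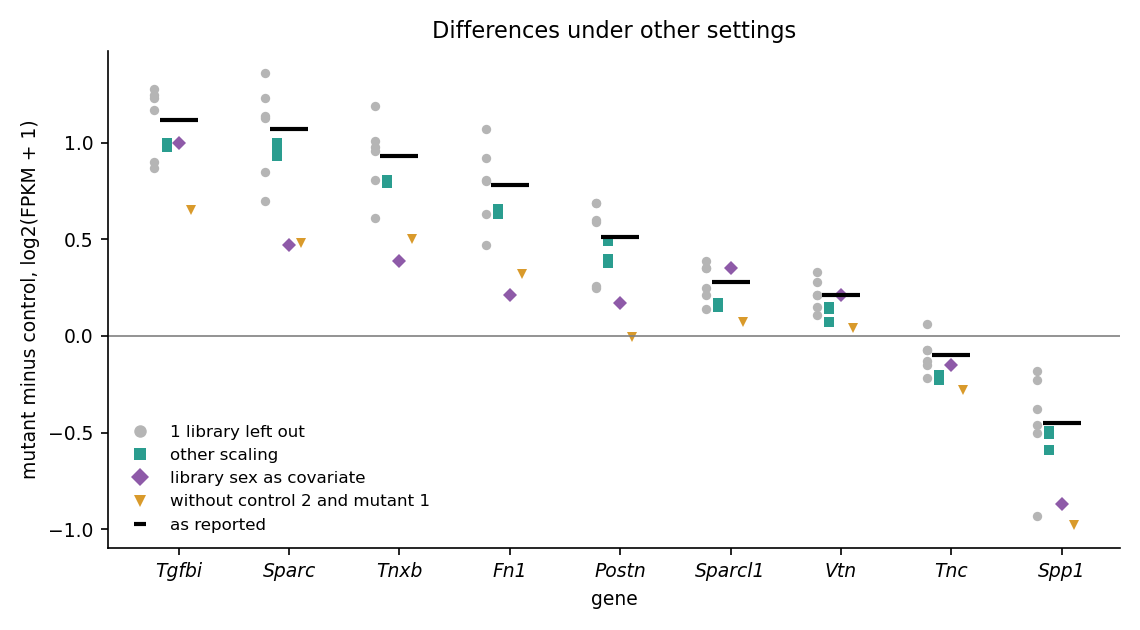
Mutant minus control difference of the 9 tested genes on the log2(FPKM + 1) scale as reported (black bar), with each library left out (grey), under 3 other scalings (green), with library sex as a covariate (purple) and without control 2 and mutant 1 together (orange). Tgfbi keeps a difference of at least 0.65 in all of these, while Postn reaches -0.0029 and Tnc crosses 0.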

How the data were processed

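Total RNA from ventral dermis of 3 mutant and 3 control mice was made into stranded paired-end libraries, per the labels' protocols. Per the submitters' processing notes, the tools were GSNAP and HTSeq and the build was mm10. Their versions, the annotation, the counting options and any filters are not stated. The authors deposited 1 FPKM value per gene and library, and which fragments and gene lengths divide it is likewise not stated.

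Values were compared as log2(FPKM + 1), which understates the change of low genes, for the 12560 genes that averaged 1 FPKM or more. The test was limma 3.58.1 in R 4.3.3 with an intensity trend, two-sided, Benjamini-Hochberg adjusted over all tested genes, threshold 0.05, no covariate and 5.44 prior degrees of freedom. Data were simulated with independent noise and with the gene variances of these libraries shuffled over genes. There, 70 of 100 genes changed by log2 1, 97 of 100 changed by log2 2 and 4 unchanged genes were called. The simulation held no axis shared by genes and no imbalance of library sex, so these shares need not hold for the real libraries. The share that would be called among the members was not tested. Sparc, at 1.07 (SE 0.44), and Tgfbi, at 1.12 (SE 0.26), were not called. The labels name separate mice, and the limma p-values set each difference against the spread between mice, moderated by that of other genes. Among controls that spread also covers library sex, which was not balanced between the groups. Ratios within a library were compared with exact permutation tests.

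Reads per gene were recovered from the whole-number steps of FPKM within each gene, within a relative tolerance of 3e-09. A solution was found for 23412 of 23412 genes, including genes where nothing could be checked, and on simulated data 98.2% of 11322 genes with at least 50 reads came back exactly. They served for depth and for an added limma-voom fit.

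Deviations from the group mean had correlations of -0.0819 to 0.0367 between same-numbered mutants and controls, so no pairing by number was seen. Such correlations cannot exclude that same-numbered mice were littermates or were handled together. Locations are from GENCODE M21 (GRCm38). Fn1, Tnc and Sparcl1 have annotated genes on the opposite strand (for Fn1, Apol7d over 364 bases, at 0.18 FPKM on average), and whether counting used strand is not stated. Spp1 shares 1252 bases with Gm42793 on its own strand, which strand cannot separate. The members and lists were chosen with earlier results of these data known. All 10 members are named, and of each list of partners the genes called or, where none was, the 3 with the smallest p. Some untested genes and some genes below 0 are named besides. Alternatives covered the pseudocount, the filter, 3 scalings, each library left out, a replicate block and library sex; limma-voom, the fit without control 2 and mutant 1 and library sex with mutant 2 left out were chosen after seeing the data. Of the marker lists, 8 skeletal muscle genes had a median log2 difference of 0.36, 8 keratinocyte genes 0.40, 8 hair follicle genes -0.22, 8 adipocyte genes 0.85 and 8 Schwann cell genes 0.15, and of the red blood cell genes 1 was tested, at 0.19. The value of 1 matrix partner is not reported here.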

Additional observations from a re-analysis of the deposited data

How the results depend on the processing

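Of 151 member differences under 17 alternatives, 147 kept their direction and stayed on the same side of the threshold. No member passed as reported and the alternatives reuse the same libraries, so this count says little of robustness. It also ignores size. With library sex as a covariate, Fn1 went from 0.78 to 0.21 and Sparc from 1.07 to 0.47. In the same fit Sparcl1 went from 0.28 to 0.35 and Spp1 from -0.45 to -0.87. Tnc turned to 0.06 without mutant 2 (range -0.22 to 0.06 with a single library left out) and to 0.0048 with library sex as a covariate and mutant 2 left out, and Postn to -0.0029 without control 2 and mutant 1 together, and Tnxb passed without control 3. The number of members called was 0 as reported and 0 to 1 with a single library left out. All genes called numbered 18 as reported, 9 with a pseudocount of 0.1, 4 with no filter on low FPKM, 28 after median-of-ratios scaling, 73 after rescaling to the same FPKM sum and 32 after quantile normalization. They numbered 68 with the replicate block, 11 with library sex as a covariate, 3 with that covariate and mutant 2 left out, 9 without control 2 and mutant 1 together and 80 with limma-voom on recovered reads, and 3 to 202 with a single library left out (3 without mutant 2, 202 without control 3). The causes were not tested. Over all tested genes the median was 0.09 in the deposited values, against -0.01, -0.03 and -0.03 after the 3 scalings. Same-numbered libraries showed no shared deviation, and 0 of 3 mutants correlated best with their own number. With the replicate block 0 members were called, and the ratio differences kept their values. Each had p = 0.25 by an exact sign-flip permutation test, the smallest possible with 3 pairs, so this p cannot be set against that of the main test. The median of the members ranged from 0.25 (without control 2) to 0.69 (without control 3 or without mutant 2) with a single library left out and was 0.38 to 0.49 under the scalings. Spp1, Vtn and Tnn rest on 6 to 76 reads a library, which limits what their differences can show.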
